A study of Homo sapiens with 16 samples.

Results

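H3K27ac peaks of CAOV4cis cells were compared with those of CAOV4 cells on the autosomes, to see how the acetylated regions of a high-grade serous ovarian cancer line differ after a short selection with cisplatin (cPt). Wherever a peak of 1 list overlapped a peak of the other by 1 bp or more, they were joined, and the 47486 peaks of the pair gave 32191 regions, of 58336 regions that form when all 8 peak lists of the series are merged the same way. Each region was classed as common, CAOV4cis-only or CAOV4-only by the lists with a peak in it.

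H3K27ac, the acetylation of lysine 27 on histone H3, is written by acetyltransferases of the p300/CBP family and marks active enhancers and promoters. Where many enhancers lie close together the mark forms broad domains, which are often found near genes that define a cell type, and enhancers vary more between cell types than promoters do. Cisplatin binds to purines in DNA and links neighboring bases, and ovarian cancers are commonly treated with it.

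CAOV4 is an established epithelial ovarian cancer line and was grown without cPt. CAOV4cis was derived from it by 21 days of rising cPt concentrations and then kept in medium with 1 µM cPt, so cPt exposure and selection by cPt cannot be told apart in this pair. The A2780 cells used beside it are a cPt-sensitive line of endometrioid origin, A2780cis cells are their cPt-resistant derivative, kept in 1 µM cPt, and 2 further A2780 lists come from cells with a short hairpin RNA against MBD3 (shMBD3.26 and shMBD3.232). For all of them mononucleosomes were released with micrococcal nuclease, 5% of *D. melanogaster* mononucleosomes were added, and the H3K27ac-bearing fraction was sequenced. There was 1 library per line, so no difference given here has a replicate check and no test between lines could be made. The lists hold the start and end of each peak with a score of 0 throughout, so position and width of a peak are known, and its height and the number of reads under it are unknown. Both lists of the pair, like the other 6, cover chromosomes 1 to 19, and on chromosomes 1 to 12 they break off before the human chromosome ends (on chromosome 1 the last peak of any list ended at 197193000), so the distal parts and chromosomes 20 to 22 are not described. Positions are those of the lists, on GRCh37/hg19 per the labels, counted from 1. Intervals of shares (95%, Wilson) reflect counting error alone. No gene annotation of this build was used, so loci are given by position, the epithelial markers of the line were not looked up, and genes are named only for the windows that the study itself drew.

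The CAOV4cis list was slightly longer than the CAOV4 list, and the typical peak was as wide in both. CAOV4 had 22826 peaks that covered 76.4 Mb, and CAOV4cis had 24660 peaks that covered 82.0 Mb, a ratio of 1.07. The median width was 2.2 kb in each line with quartiles of 1.0 and 4.2 kb, and peaks over 10 kb held 24.5% of the covered length in CAOV4 and 24.1% in CAOV4cis. Of the merged regions, 12037 were common (37.4%, 36.9 to 37.9), 10999 were CAOV4cis-only (34.2%, 33.6 to 34.7) and 9155 were CAOV4-only (28.4%, 27.9 to 28.9). Common regions had a median width of 5.0 kb, and regions of a single line had one of 1.0 kb in either class. The net change of 5.54 Mb came from 15.2 Mb in CAOV4cis-only regions, a loss of 13.1 Mb in CAOV4-only regions (net change -13.1 Mb) and a further 3.39 Mb within common regions. Base by base, 49.2 Mb were covered in both lines, which was 64.3% of the CAOV4 length and 60.0% of the CAOV4cis length. For the A2780 pair these shares were 59.9% and 63.3%, and for the hairpin lists 76.5% and 74.2%. When only the 22826 widest peaks of each line were taken, the excess of CAOV4cis-only over CAOV4-only regions (ratio 1.201) shrank to 1.01, as the narrowest peaks of the longer list dropped out. Lists of equal length bring this ratio close to 1 by themselves, so no conclusion is drawn from it.

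How often a peak had a partner in the other line depended on its width. All 220 CAOV4 peaks over 20 kb and all 254 such CAOV4cis peaks overlapped a peak of the other line. Between 10 and 20 kb, 879 of 893 CAOV4 peaks (98.4%, 97.4 to 99.1) and 921 of 924 CAOV4cis peaks (99.7%, 99.1 to 99.9) had a partner. Nearly all peaks over 10 kb thus had a partner, which takes 1 bp of overlap and does not show that a broad domain was kept. At chr8:69830001-69846000, for example, a CAOV4 peak of 16 kb had a CAOV4cis partner of 0.8 kb. In the A2780 pair, by contrast, 74.0% (69.3 to 78.2) of the A2780 peaks over 20 kb and 85.2% (81.6 to 88.2) of those of A2780cis had a partner. Between the hairpin lists all 279 shMBD3.26 peaks and all 364 shMBD3.232 peaks over 20 kb had one, so this was not particular to the CAOV4 pair. Narrow peaks differed far more between CAOV4 and CAOV4cis: of peaks up to 2 kb, 34.0% (33.1 to 34.9) in CAOV4 and 27.8% (27.04 to 28.65) in CAOV4cis overlapped the other list. Between 2 and 5 kb the shares were 76.5% in CAOV4 and 72.9% in CAOV4cis, and between 5 and 10 kb they were 93.8% and 94.7%.

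In common regions the covered length rose slightly on the median and varied widely around it. The median was 3.6 kb in CAOV4 and 4.0 kb in CAOV4cis, and the median ratio per region was 1.07 with quartiles of 0.767 and 1.5. Of the 12037 common regions, 6496 were wider in CAOV4cis (54.0%, 53.1 to 54.9), 5040 were narrower (41.9%, 41.0 to 42.8) and 501 were equal. The shift was about as large as the ratio of the total covered lengths: divided by that ratio, the median became 0.999, and 49.7% of regions were wider. A ratio of 1.5 or more was reached by 3152 regions (26.2%) and a ratio of 1/1.5 or less by 2299 regions (19.1%), and after the same division the shares were 21.8% in each direction. Called the same way, 25.7% of the common regions of the A2780 pair were up and 15.9% down, and between the hairpin lists 18.7% were up and 13.8% down. Regions of the CAOV4 pair thus changed in both directions, and the excess of increases was not kept under this division, which itself centers the ratios.

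The spread of the ratios narrowed with width. Among the 2078 common regions with up to 2 kb covered (mean of both lines) the median ratio was 1.00, with 35.2% up and 31.5% down by 1.5-fold. Among the 5875 regions of 2 to 5 kb the median was 1.09, with 28.9% up and 20.3% down. In kb the differences grew with width, with a standard deviation of 1.22 kb up to 2 kb and 4.35 kb over 20 kb. Few of the 322 regions with more than 20 kb covered reached a 1.5-fold ratio, which takes a larger change in kb there. Of them, 6 were up (1.86%, 0.857 to 4.005) and 2 were down (0.621%, 0.171 to 2.24), with a median ratio of 1.01. In the same class the A2780 pair had 15.2% up and 7.23% down of 401 regions, and the hairpin lists 2.65% and 0.794% of 378. Edges lie on a 200 bp grid, so a shift of a single grid step weighs more in the ratio of a narrow region than in that of a wide region.

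**Figure D1:**
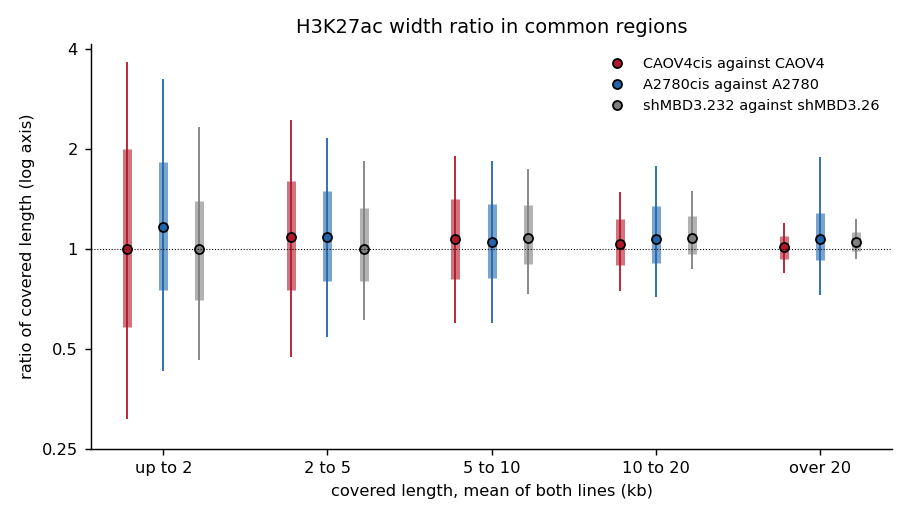
Ratio of the covered length in common regions (log axis) by the covered length in kb, mean of both lines, for CAOV4cis against CAOV4 (red), A2780cis against A2780 (blue) and the MBD3 hairpins against each other (grey). Points are medians, thick bars the quartiles and thin lines the 10th to 90th percentile over regions; the red bars are widest up to 2 kb and close to 1 over 20 kb.

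Most common regions held 1 peak in each line, and where they did not, splitting and fusing were about equally frequent in the lists as given. There were 9755 regions with 1 peak in each line (81.0%, 80.3 to 81.7). In 932 regions (7.74%, 7.28 to 8.23) a CAOV4 peak faced several CAOV4cis peaks, and in 946 regions (7.86%, 7.39 to 8.35) several CAOV4 peaks faced a single CAOV4cis peak. A further 404 regions (3.36%) held several peaks of each line and had the largest median width, 19.1 kb. Split regions lost length, with a median ratio of 0.846 and a net change of -1.45 Mb, and fused regions gained length, with a median ratio of 1.27 and a net change of 1.97 Mb, where the gaps between pieces count as not covered. In 816 of the split and 831 of the fused regions there were just 2 pieces. The gaps between pieces were short, with a median of 1.2 kb in both kinds, and 86.2% of the gaps in split regions and 82.3% of those in fused regions were at most 2 kb long. Since peaks of a list lie at least 1000 bp apart, these gaps are near the smallest that the lists can hold. With peaks up to 2 kb apart joined first, 408 split and 549 fused regions were left, so the balance depended on these short gaps. The A2780 pair was less balanced, with 453 split (3.29%, 3.002 to 3.598) and 1274 fused regions (9.24%, 8.77 to 9.74), and so were the hairpin lists, with 448 split and 1002 fused. In both of these the second list also held fewer peaks than the first (ratios 0.725 and 0.814, against 1.08 in the CAOV4 pair). The part of this in the counts was not tested.

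The 3 split regions with the most pieces each had 1 peak in CAOV4 and 5 in CAOV4cis. At chr3:133141801-133189600 a 46 kb CAOV4 peak was listed as 5 CAOV4cis peaks that together covered 41.4 kb, and neither A2780 list had a peak there. At chr19:1235801-1271400 the covered length was 32 kb in CAOV4 and 27.2 kb in CAOV4cis, and at chr11:1840601-1861600 it was 21 kb and 12 kb. The reverse was seen at chr1:145230001-145274600, where 7 CAOV4 peaks of 35.4 kb in sum were listed as 1 CAOV4cis peak of 44.6 kb. At chr16:89879601-89906800, 5 CAOV4 peaks with 20.6 kb faced a single CAOV4cis peak of 27.2 kb, and at chr17:45565801-45627200, 4 peaks with 53.4 kb faced a peak of 61.4 kb. These 6 regions were chosen by their number of pieces, and their ratios of covered length ran from 0.571 on chromosome 11 to 1.32 on chromosome 16.

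The 9755 regions with 1 peak in each line show how edges moved. The start moved by a median of -0.2 kb and the end by 0.2 kb, an outward step of the size of the grid on either side. The absolute shift of an edge had a median of 0.8 kb and that of the center 0.6 kb, against 0.6 and 0.4 kb in the A2780 pair and 0.4 and 0.3 kb between the hairpin lists. The CAOV4cis peak contained the CAOV4 peak in 34.3% of these regions (33.3 to 35.2) and lay within it in 24.5% (23.6 to 25.3). In 40.6% (39.6 to 41.5) both edges had moved the same way, 20.5% toward higher and 20.1% toward lower positions. Such sliding was listed in 30.2% (29.4 to 31.1) of the regions of the A2780 pair and in 32.0% (31.2 to 32.8) of those of the hairpin lists. Identical edges were rare in the CAOV4 pair (67 regions, 0.687%, 0.541 to 0.871) and more frequent in the A2780 pair (2.38%) and the hairpin lists (3.52%). By these values broad peaks had a partner more often in the CAOV4 pair and between the hairpin lists than in the A2780 pair. Peak edges lay farther apart in the CAOV4 pair than in either of the others.

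**Figure D2:**
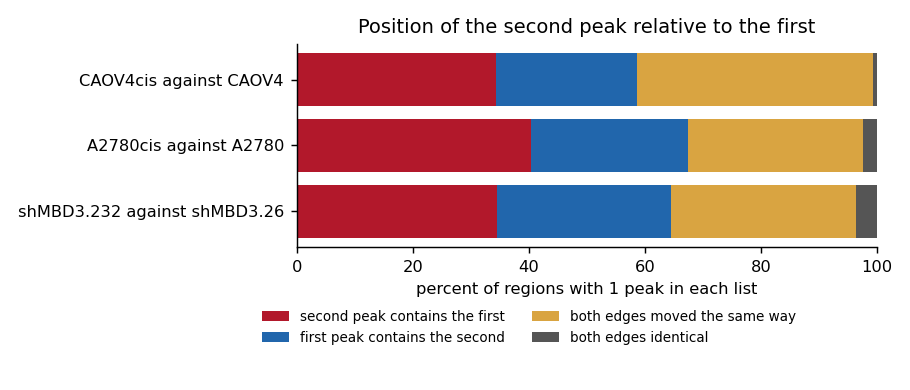
Position of the peak of the second list relative to that of the first, in percent of the common regions with 1 peak in each list, for CAOV4cis against CAOV4, A2780cis against A2780 and the MBD3 hairpins against each other. The share with both edges moved the same way is 40.6% in the CAOV4 pair, 30.2% in the A2780 pair and 32.0% between the hairpin lists.

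The widest merged region had a similar covered length in both lines and was listed in more pieces in CAOV4cis. It lay at chr16:85374201-85698000, where CAOV4 had 4 peaks that covered 320.6 kb, the longest of them 231 kb, and CAOV4cis had 10 peaks that covered 311.8 kb. The adjoining region at chr16:85699201-85802800 changed the other way, from 8 peaks with 90.4 kb in CAOV4 to 2 peaks with 101 kb in CAOV4cis. A further domain of this size, chr14:94774601-94895800, covered 113.2 kb in CAOV4 and 118.8 kb in CAOV4cis and had no peak in A2780 or A2780cis. The ratios of covered length in these domains were 0.973, 1.12 and 1.05, while their number of pieces changed. On chromosome 16 it changed in opposite directions in adjoining regions. Gaps in a list can be as short as 1000 bp, so more pieces do not show that a domain was broken up.

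The largest increases within common regions were of 13 to 16.4 kb. At chr3:27383201-27408200, 3 CAOV4 peaks with 8.6 kb were replaced by a single CAOV4cis peak of 25 kb, and neither A2780 list had a peak there. At chr10:104497601-104539800 the covered length was 25.2 kb in CAOV4 and 41.2 kb in CAOV4cis, and at chr3:12583601-12601600 it was 3.6 kb and 18 kb. At chr9:68412001-68429600 the length was 3.8 kb in CAOV4 and 17.4 kb in CAOV4cis, and at chr7:74068401-74092000 it was 10.6 kb and 23.6 kb. In 4 of these 5 regions CAOV4cis had fewer and longer peaks than CAOV4. Among common regions of at least 5 kb, the highest ratios were 12.5 at chr17:39766801-39776800 (0.8 kb in CAOV4 and 10 kb in CAOV4cis), 11.5 at chr8:125534401-125543600 (0.8 and 9.2 kb) and 10.2 at chr3:149251001-149261200 (1 and 10.2 kb).

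The largest decreases within common regions were of the same size, 15.2 to 16.6 kb, and in 3 of the 5 the CAOV4cis list kept less than 1/5 of the CAOV4 length. At chr12:89137201-89157600 a CAOV4 peak of 20.4 kb faced 2 CAOV4cis peaks with 3.8 kb. At chr1:27322401-27340800 the lengths were 18.4 kb in CAOV4 and 3.2 kb in CAOV4cis, and at chr17:2237801-2258400 they were 20.6 kb and 5.4 kb. A peak of 16 kb at chr8:69830001-69846000 left 0.8 kb in CAOV4cis, a ratio of 0.050. The remaining region, chr14:68596001-68672200, lies in the RAD51B window of the study and had 2 CAOV4 peaks with 75.2 kb and 6 CAOV4cis peaks with 59 kb. The lowest ratios among regions of at least 5 kb were 0.038 at chr11:73048201-73058800 (10.6 kb in CAOV4 and 0.4 kb in CAOV4cis), 0.048 at chr4:129142801-129155400 (12.6 and 0.6 kb) and that of the chromosome 8 region.

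Regions found in a single line were narrow as a rule, and the widest of them were CAOV4-only. Of the CAOV4-only regions 14 were wider than 10 kb, against 3 of the CAOV4cis-only regions. The 5 widest CAOV4-only regions measured 19 kb (chr2:100243001-100262000), 17 kb (chr8:40202401-40219400), 15.8 kb (chr11:90612201-90628000), 14.6 kb (chr17:68196001-68210600) and 14.4 kb (chr11:90546801-90561200). None of these 5 had a peak in A2780 or A2780cis, and this held for 13 of the 14 and for 2 of the 3 CAOV4cis-only regions over 10 kb. Between 5 and 10 kb, 41.4% (34.6 to 48.6) of the CAOV4-only and 47.5% (40.4 to 54.8) of the CAOV4cis-only regions had a peak in either A2780 list. The 5 widest CAOV4cis-only regions were shorter, at 10.4 kb on chromosome 1 (chr1:167233401-167243800), chromosome 16 (chr16:71615401-71625800) and chromosome 5 (chr5:32247201-32257600), 10 kb at chr2:101856401-101866400 and 9.2 kb at chr14:96972601-96981800. Of the 14 broad CAOV4-only peaks, 7 fell into 4 of the 5 windows of 1 Mb with the largest decrease. These peaks are part of the lost length by which the windows were ranked, so no clustering is concluded from it.

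The 1 Mb profile of the pair was alike, within 1.5-fold, in most of the windows that were compared. Of 2422 windows, 878 held at least 20 kb in the mean of both lines and together 89.97% of the covered length. Their ratio had a median of 1.099 with quartiles of 0.907 and 1.32. An increase of 1.5-fold or more was found in 109 windows (12.4%) and a decrease of that size in 67 (7.63%). Divided by the ratio of the total lengths the order turned, to 8.2% up and 10.2% down, and with at least 50 kb covered 6.17% were up and 4.94% down. The log2 covered lengths (with 10 kb added) of CAOV4 and CAOV4cis had a Pearson r of 0.905 and a Spearman rho of 0.886 over the 878 windows. Both lines have the same genes in a window, and neighboring windows are not independent of each other. Over the 1084 windows of the A2780 pair r was 0.487 with 12.2% up and 19.3% down, and over the 945 of the hairpin lists it was 0.924 with 1.9% up and 4.34% down. Changes of 4-fold or more occurred in 1 window up and 5 windows down in the CAOV4 pair, against 42 up and 88 down in the A2780 pair.

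**Figure D3:**
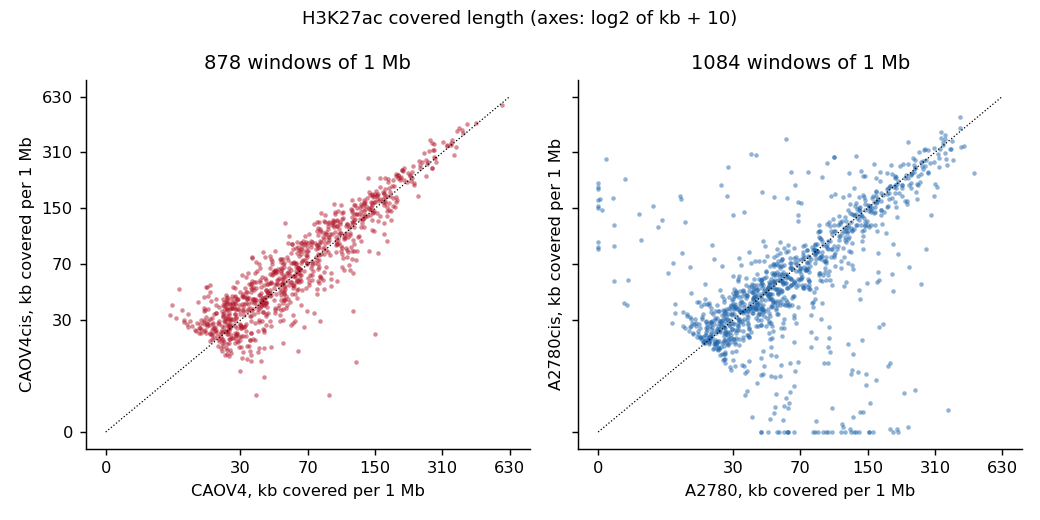
H3K27ac covered length in windows of 1 Mb, in kb, CAOV4cis against CAOV4 (left, 878 windows) and A2780cis against A2780 (right, 1084 windows), on axes of log2 of the length plus 10 kb, with the line of equality dotted. The CAOV4 points lie along the line with 5 windows down by 4-fold or more, and the A2780 points spread to both axes.

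The windows with the largest decrease, chosen for that, held many CAOV4 peaks, and a large loss requires a long covered length in CAOV4. In CAOV4 less acetylation was listed in the windows next to them, which this choice favors. On chromosome 17 from 68 to 69 Mb, CAOV4 had 41 peaks that covered 149.6 kb and CAOV4cis had 10 peaks that covered 23.8 kb, and 34 regions of the window were CAOV4-only. The peaks of CAOV4 stood between 68033401 and 68552200, up to 17.6 kb wide, and the windows on either side held at most 12.4 kb in either line. Beside the other 4 windows of this kind the neighbors held up to 24 kb on chromosome 11, 33.8 kb on chromosome 8, 28.2 kb on chromosome 2 and 29.8 kb on chromosome 18. In CAOV4cis the neighbors on chromosome 8 held 6.4 and 33.8 kb, more than the window itself. On chromosome 11 from 90 to 91 Mb the covered length was 120.8 kb in CAOV4 and 13.8 kb in CAOV4cis, and all 5 common regions of the window were narrower in CAOV4cis. On chromosome 8 from 40 to 41 Mb it was 89.8 kb and 5.8 kb, with 30 CAOV4 peaks and 5 CAOV4cis peaks. These 3 windows were almost empty in the other cell line, where A2780 had no peak in any of them and A2780cis at most 0.2 kb.

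The remaining losses were partial. On chromosome 2 from 100 to 101 Mb the length was 117.4 kb in CAOV4 and 35 kb in CAOV4cis, and on chromosome 18 from 20 to 21 Mb it was 170.2 kb and 96.8 kb. In both of them CAOV4cis kept common regions (9 and 20), and the A2780 lists covered between 7.6 and 25.4 kb. In the order given, the 5 windows, which were chosen for their decrease, held 34, 21, 28, 22 and 29 CAOV4-only regions and 2, 1, 3, 4 and 10 CAOV4cis-only regions.

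**Figure D4:**
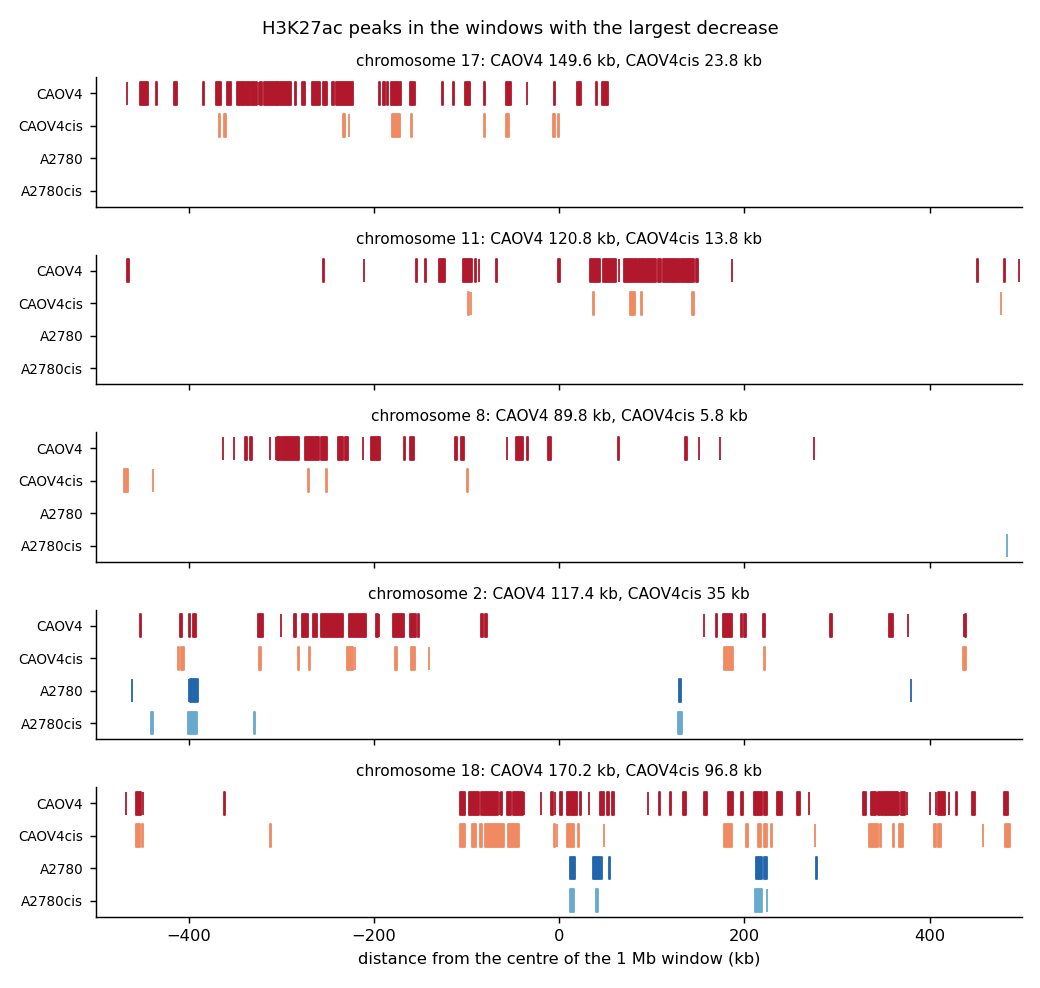
Peaks of CAOV4, CAOV4cis, A2780 and A2780cis in the 5 windows of 1 Mb with the largest decrease in covered length, by distance from the center of the window in kb, drawn to scale. Dense blocks of CAOV4 peaks on chromosomes 17, 11 and 8 face a few narrow CAOV4cis peaks and almost no A2780 peaks.

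The windows with the largest increase, chosen for that, were acetylated in CAOV4 too. On chromosome 12 from 53 to 54 Mb the covered length was 272 kb in CAOV4 and 361.8 kb in CAOV4cis, with 27 of 34 common regions wider and 22 CAOV4cis-only regions against 11 CAOV4-only. On chromosome 14 from 91 to 92 Mb it was 139.2 kb and 223.4 kb, where 23 of 27 common regions were wider and the widest peak was 12 kb in CAOV4 and 30.8 kb in CAOV4cis. On chromosome 10 from 12 to 13 Mb it was 53.2 kb and 124.2 kb, the highest ratio of the 5 windows at 2.33, with 15 of 17 common regions wider. On chromosome 17 from 40 to 41 Mb and on chromosome 16 from 84 to 85 Mb the lengths rose from 278.6 to 349.2 kb and from 158.8 to 223.4 kb. All 5 windows were also covered in A2780, by 51.4 to 233.2 kb.

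By chromosome, the covered length was larger in CAOV4cis on 16 of 19 autosomes, at a ratio of 1.00 on chromosome 13 and up to 1.197 on chromosome 7 (4.08 Mb in CAOV4 and 4.88 Mb in CAOV4cis). Chromosome 5 had a ratio of 1.19, chromosome 8 of 1.16 and chromosome 12 of 1.15. Lower coverage was found on chromosome 2 (ratio 0.856), chromosome 18 (0.781) and chromosome 19 (0.823, from 4.13 to 3.40 Mb). After division by the ratio of the total lengths, 10 chromosomes stayed above 1, and chromosomes 2, 18 and 19 stayed below. The change was also seen within common regions, whose median ratio was 0.875 on chromosome 19, 0.929 on chromosome 18 and 0.933 on chromosome 2. Chromosome 19 thus carried the largest loss among these autosomes, 0.73 Mb (net change -0.73 Mb). Chromosome X, outside the comparison, lost more, from 1.93 Mb in CAOV4 to 0.973 Mb in CAOV4cis. In the A2780 pair 12 autosomes had a ratio below 1, and the range was from 0.537 on chromosome 13 to 1.06. Chromosomes 2 (0.9665), 18 (0.8265) and 19 (0.9113) were among these 12, so lower coverage on them was not particular to the CAOV4 pair.

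**Figure D5:**
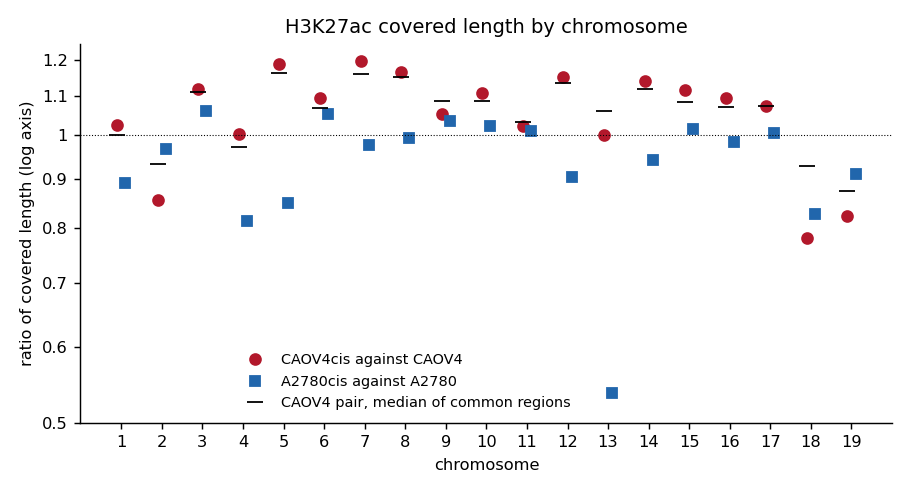
Ratio of the H3K27ac covered length by chromosome (log axis) for CAOV4cis against CAOV4 (circles) and A2780cis against A2780 (squares); bars give the median ratio of the common regions of the CAOV4 pair. Chromosomes 2, 18 and 19 lie below 1 in both pairs and are the only ones below 1 in the CAOV4 pair. Chromosome 13 lies lowest in the A2780 pair.

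Within some chromosomes the direction changed along the length. In blocks of 10 Mb with at least 200 kb covered in the mean of both lines, a size chosen after the values were seen, 92 of 116 blocks had a ratio above 1, with a range from 0.767 to 1.499. On chromosome 1 all 6 such blocks before the longest stretch with no peak (121485601 to 142586000) had a ratio below 1, the lowest at 0.768 from 20 to 30 Mb, and all 5 blocks behind it had a ratio above 1, the highest at 1.40 from 170 to 180 Mb. Summed over these parts the ratio was 0.899 before and 1.18 behind the stretch. On chromosome 17 the blocks from 0 to 20 Mb had ratios of 0.775 and 0.826, and the 7 blocks from 20 to 90 Mb lay between 1.08 and 1.21. The highest block was on chromosome 7 from 30 to 40 Mb (328.4 kb in CAOV4 and 492.2 kb in CAOV4cis, ratio 1.499), followed by chromosome 5 from 0 to 10 Mb (1.45). The lowest was on chromosome 19 from 10 to 20 Mb (958.4 kb and 735.4 kb, ratio 0.767). Neighboring blocks of a chromosome thus shared their direction over long distances on chromosomes 1 and 17. The input libraries of both lines were not analysed here.

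The A2780 lists served as a readout that was not used to class the CAOV4 regions. A peak in A2780 or A2780cis was found at 68.6% (67.8 to 69.4) of the common regions, at 28.3% (27.5 to 29.1) of the CAOV4cis-only regions and at 30.01% (29.1 to 30.9) of the CAOV4-only regions. Common regions were above the others within a width class too: between 2 and 5 kb the shares were 67.3% (66.0 to 68.6), 41.0% (38.9 to 43.0) and 45.4% (43.2 to 47.6). Regions listed in both CAOV4 lines were thus more often acetylated in the other cell line than regions of the same width found in a single line. Among common regions, those that had shrunk were less often shared with A2780 than the others. Between 5 and 10 kb, 60.8% (55.8 to 65.5) of 390 regions down by 1.5-fold had a peak in either A2780 list, against 74.6% (72.5 to 76.5) of 1826 regions within 1.5-fold and 77.2% (73.7 to 80.3) of 627 regions up. Between 2 and 5 kb these shares were 60.3%, 74.6% and 69.0%, and over 10 kb they were 62.5% (50.2 to 73.3), 75.8% and 73.7%. Of the windows of 1 Mb, 14.9% (8.31 to 25.3) of the 67 down, 11.9% (7.10 to 19.3) of the 109 up and 4.99% (3.61 to 6.85) of the 702 others held less than 5 kb in the mean of A2780 and A2780cis. The changed windows were also the less covered ones, with a median of 39.8 kb (down) and 32.9 kb (up) in the CAOV4 pair against 63.8 kb in the others, and the part of this in the shares was not tested.

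Of 7 windows that the study drew around genes, 3 had no peak in either CAOV4 line. The study drew those of JAK1 and FGF10 to compare A2780cis with A2780, so they were not chosen for the CAOV4 pair. In the window of JAK1, a kinase of cytokine receptor signaling, peaks covered 6.39% (6 kb) in CAOV4 and 11.9% (11.2 kb) in CAOV4cis. Its coverage was 1.28% in A2780 and 40.5% in A2780cis. Of the 6 CAOV4cis peaks, 4 overlapped none of the 4 CAOV4 peaks, the widest of them at chr1:65414401-65418000 and chr1:65429201-65432000. Lack of a partner was common at such widths: it held for 8602 of all 11921 CAOV4cis peaks up to 2 kb and for 2213 of 8169 between 2 and 5 kb. FGF10, which encodes a growth factor ligand, had no peak in either line, whereas 62.2% of its window was covered in A2780cis. The windows of LINC00871 and SLC66A1L were empty in both CAOV4 lines too. In the window of RAD51B, a gene of homologous recombination repair, coverage was 47.7% in 25 peaks in CAOV4 and 41.5% in 33 peaks in CAOV4cis. The A2780 pair moved the other way there, from 3.03% in A2780 to 72.9% in A2780cis. The window from TUT1 to GANAB was covered to 77.1% by 5 CAOV4 peaks and to 89.5% by a single CAOV4cis peak, and the window from MIR29A to LINC-PINT to 1.06% (2.2 kb) and 5.20% (10.8 kb). RAD51B and the TUT1 to GANAB window were thus the drawn loci with broad H3K27ac in both CAOV4 lines, and they differed in the number of peaks more than in covered length.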

How the data were processed

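H3K27ac was profiled by ChIP-seq on mononucleosomes in CAOV4 and CAOV4cis cells, with 1 library each. The authors mapped their reads on Galaxy (Bowtie2), applied a quantile normalization in R and ran MACS2 for peak calling, and the labels name GRCh37/hg19. They deposited 1 peak list per sample, not pooled, and the deposited positions (start and end of a peak, 0-based) were the only columns used. All edges lie on a 200 bp grid with no gap under 1000 bp inside a list, and the sources used here name no step that gives this layout. The lists hold no read counts, so the depth and the precision of a peak are unknown.

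Peaks of both lists on the autosomes (659 CAOV4 and 401 CAOV4cis peaks lay elsewhere) were merged at an overlap of 1 bp or more, and the length covered by each list was summed per region, per chromosome and per window of 1 Mb. Windows were compared where the mean of both lines was at least 20 kb. The call was a ratio of 1.5-fold. Split regions have 1 CAOV4 peak and at least 2 CAOV4cis peaks, and fused regions the reverse. With 1 library per line no p-value was computed. Wilson intervals are at 95%. The regions named are the 5 with the largest increase and decrease, the 3 highest and lowest ratios over 5 kb, the 3 with the most pieces in each direction, the 5 widest of each line and the 5 windows at either end, besides the windows drawn by the study, read from its pictures (1 of them is not reported here), and the 3 widest regions, added after their values were seen. The members and these rules were chosen with earlier results of these data known. Gene lists and cell type markers need an annotation of this build and were not analysed here, and neither were the input libraries. The calculations used Python 3.11.15, numpy 2.4.6, pandas 2.3.3 and SciPy 1.17.1, with matplotlib 3.10.9 for the figures, and were tested on simulated data.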

Additional observations from a re-analysis of the deposited data

Results flagged for a closer look

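The number of peaks moved in opposite directions in the 2 cell line pairs: CAOV4 had 22826 autosomal peaks and CAOV4cis 24660, whereas A2780 had 27932 and A2780cis 20245. The covered length did so too, with 76.4 Mb in CAOV4 and 82.0 Mb (81.95 Mb) in CAOV4cis against 96.7 Mb in A2780 and 91.5 Mb in A2780cis. With 1 library per line, this difference between the pairs was not tested.

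Chromosome X lies outside the comparison, which covers autosomes only. It held 658 peaks with 1.93 Mb in CAOV4 and 399 peaks with 0.973 Mb in CAOV4cis, and 709 peaks with 2.14 Mb in A2780 and 630 peaks with 2.38 Mb in A2780cis.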

How the results depend on the processing

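Of 55 alternative values of the results that summarize a comparison, 31 stayed the same within the limits used, 23 moved and 1 reversed. Regions over 2 kb left 2397 CAOV4cis-only and 2092 CAOV4-only regions at a ratio of 1.15 instead of 1.201. The same number of widest peaks gave 1.01, a value near 1 that lists of equal length bring about by themselves. In common regions with 1 peak in each line the median ratio was 1.09, with 28.2% up and 20.4% down by 1.5-fold, and in those over 2 kb 18.3% were down. Divided by the ratio of the total covered lengths, the median ratio fell below 1, to 0.999, with 49.7% of regions wider, 21.8% up and 21.8% (21.76%) down. At a fold of 2, 14.7% were up and 11.1% down. With peaks up to 2 kb apart joined first there were 408 split and 549 fused regions, and with peaks over 2 kb 455 and 445, so the order of both counts depends on this choice. The same division left 10 chromosomes above 1 and took chromosomes 1 (0.956), 4 (0.935), 9 (0.981), 11 (0.954), 13 (0.933) and 17 (0.999) below it, and by the number of peaks chromosome 13 was at 0.995. It set the median of the 1 Mb windows to 1.02, with 8.20% up and 10.2% down. With at least 50 kb covered, 6.17% of windows were up and 4.94% down. The cause of these shifts, beyond the narrower selection or the division itself, was not tested. Named regions and windows kept their direction when the CAOV4cis list was cut to its 22826 widest peaks, the length of the CAOV4 list. Only CAOV4cis peaks of at most 400 bp dropped out, too little to turn differences of several kb. No conclusion is drawn from this. No paired analysis was possible because each line had 1 library. For the same reason leaving out a replicate was not possible. Peak height and read depth are unknown, so a region absent from a list may still carry signal.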
